A study of Mus musculus with 6 samples.

Results

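The nuclear lamina and the LINC complex were followed through 10 genes: the lamin genes Lmna, Lmnb1 and Lmnb2, the inner nuclear membrane genes Lbr, Emd and Tmpo, the SUN domain genes Sun1 and Sun2, and the nesprin genes Syne1 and Syne2. The genes were taken by name, and for each the probe set that carried only that gene's symbol and had the highest mean over the 6 arrays was used. All 10 were measured, out of 19856 genes in all, and for 8 of them only 1 such probe set existed. The series compared mouse embryonic fibroblasts, connective tissue cells cultured from embryos, of 2 kinds. One group of 3 samples was labelled tetraploid with abnormal DNA contents, and the series title calls these cells transformed. The other group of 3 samples was labelled diploid and normal control. All cells were grown in DMEM with 10% FBS to 80% confluence, and no strain, allele, age or drug was given in the labels. Each ploidy carries a single line code in the titles, so the ploidy, the transformed state and the line itself cannot be told apart. Separate cultures are not named for the samples of a group, and the p-values then measure only the spread between these samples.

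The lamina is a meshwork of lamin filaments under the inner nuclear membrane that gives the nucleus its stiffness and holds heterochromatin at the rim. B-type lamins stay anchored in the membrane by a farnesyl tail, whereas mature lamin A has lost its tail. The A-type lamins A and C, both made from Lmna, also move in the nuclear interior. LBR, emerin and the LAP2 proteins tie lamins to chromatin and membrane, and SUN proteins join nesprins across the envelope to form the LINC complex, which links the nucleus to actin, microtubules and intermediate filaments. At each mitosis the lamina is taken apart by phosphorylation and built again around the daughter chromosomes.

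The promoters of Tmpo, Lmnb2 and Syne2, which were higher in the tetraploid cells, are shown. Beside them stands that of Lbr, a membrane partner that did not pass the test. The sequences are those of RefSeq on GRCm38.p6. Windows were at hand for 9 of the 10 members, and none for Lmnb1, which was also higher. Each run holds the 250 bases before a start site, 5′ to 3′ on the gene's strand. Starts are numbered as listed. The RefSeq span of Tmpo reaches further upstream than both printed windows, to position 91181752 of chromosome 10. Capitals mark matches, on either strand, to TTTCCCGC or TTTGGCGC (letters bound by E2F factors), TTTGAA (the CHR element of cell cycle genes), CCAAT (bound by NF-Y) and GGGCGG (the GC box). Neighbouring or overlapping matches appear as 1 run of capitals.
Tmpo, first start, chr10:91171620-91171869, minus strand: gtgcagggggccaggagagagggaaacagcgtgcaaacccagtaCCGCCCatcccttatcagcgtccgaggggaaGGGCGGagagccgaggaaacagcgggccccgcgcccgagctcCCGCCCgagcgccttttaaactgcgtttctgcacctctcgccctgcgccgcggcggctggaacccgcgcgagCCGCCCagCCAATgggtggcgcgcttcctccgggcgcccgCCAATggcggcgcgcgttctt
Tmpo, second start, chr10:91170551-91170800, minus strand: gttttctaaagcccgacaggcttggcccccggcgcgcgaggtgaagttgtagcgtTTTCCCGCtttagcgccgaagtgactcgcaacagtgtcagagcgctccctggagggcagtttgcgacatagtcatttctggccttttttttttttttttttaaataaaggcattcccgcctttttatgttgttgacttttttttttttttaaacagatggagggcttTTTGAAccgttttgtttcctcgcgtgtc
Lmnb2, first start, chr10:80918246-80918495, minus strand: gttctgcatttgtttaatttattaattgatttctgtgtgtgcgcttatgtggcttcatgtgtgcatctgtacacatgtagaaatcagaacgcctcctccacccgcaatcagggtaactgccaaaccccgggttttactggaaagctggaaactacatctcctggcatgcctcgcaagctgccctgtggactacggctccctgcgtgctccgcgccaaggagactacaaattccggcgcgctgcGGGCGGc
Syne2, chr12:75818068-75818317, plus strand: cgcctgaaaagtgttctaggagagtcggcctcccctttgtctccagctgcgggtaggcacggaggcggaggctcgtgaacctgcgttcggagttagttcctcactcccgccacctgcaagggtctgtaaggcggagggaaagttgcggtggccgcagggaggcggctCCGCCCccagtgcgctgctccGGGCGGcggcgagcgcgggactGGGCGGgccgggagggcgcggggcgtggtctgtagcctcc
Lbr, chr1:181842402-181842651, minus strand: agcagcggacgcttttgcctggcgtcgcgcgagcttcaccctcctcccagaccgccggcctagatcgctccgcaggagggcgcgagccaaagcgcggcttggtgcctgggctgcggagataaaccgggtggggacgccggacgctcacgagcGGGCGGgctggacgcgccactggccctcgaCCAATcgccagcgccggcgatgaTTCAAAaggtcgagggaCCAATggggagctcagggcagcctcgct

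An E2F match was found in 1 of the 15 member windows, the second start of Tmpo, and in 1.3% of 32851 windows of the same length in the whole table. A CHR match was found in 3 of 15 member windows, those of Lbr, Sun2 and the second start of Tmpo, against 16.0% of all windows. CCAAT occurred in 7 of 15 (33.8% of all windows) and the GC box in 9 of 15 (32.7% of all windows). Of the printed genes, Lmnb2 and Syne2 held only GC box matches, while Lbr held a CHR match, CCAAT letters and a GC box. A match here describes letters and is not a measured binding site.

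The question was how the transcripts of the lamina differed between the tetraploid and the diploid cells. Of the 10 genes 4 rose in the tetraploid line (Syne2, Tmpo, Lmnb2 and Lmnb1), 0 fell and 6 did not pass the test, which was limma's moderated test with a Benjamini-Hochberg adjusted p below 0.05 over all genes. At an unadjusted p under 0.05, 5 of the 10 were higher, the 4 called genes and Syne1, and 0 were lower. Both B-type lamin genes rose, while the A-type lamin gene Lmna stood at nearly equal mean levels in the lines. Over all 19856 genes the adjusted test called 6.15% as higher and 7.8% as lower in the tetraploid line. An unadjusted limma p under 0.05 was reached by 5854 of these genes, in either direction. The median log2 difference was 0.62 over the 10 genes and 0.07 over all genes, or 0.42 and 0.12 with values below background (the 95th percentile of 1027 olfactory receptor genes on an array) raised to it. The 0.12 over all genes has the size of the shift of the background level itself between the lines. The 3 tetraploid values lay above the 3 diploid values in 6 of the 10 genes, against 19.1% of all genes. Without 1 array the number of members that rose lay between 1 and 4, and Syne2 was the member called in each of these 6 fits. In the same fits 29.7% to 74.0% of all called genes were still called.

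**Figure D1:**
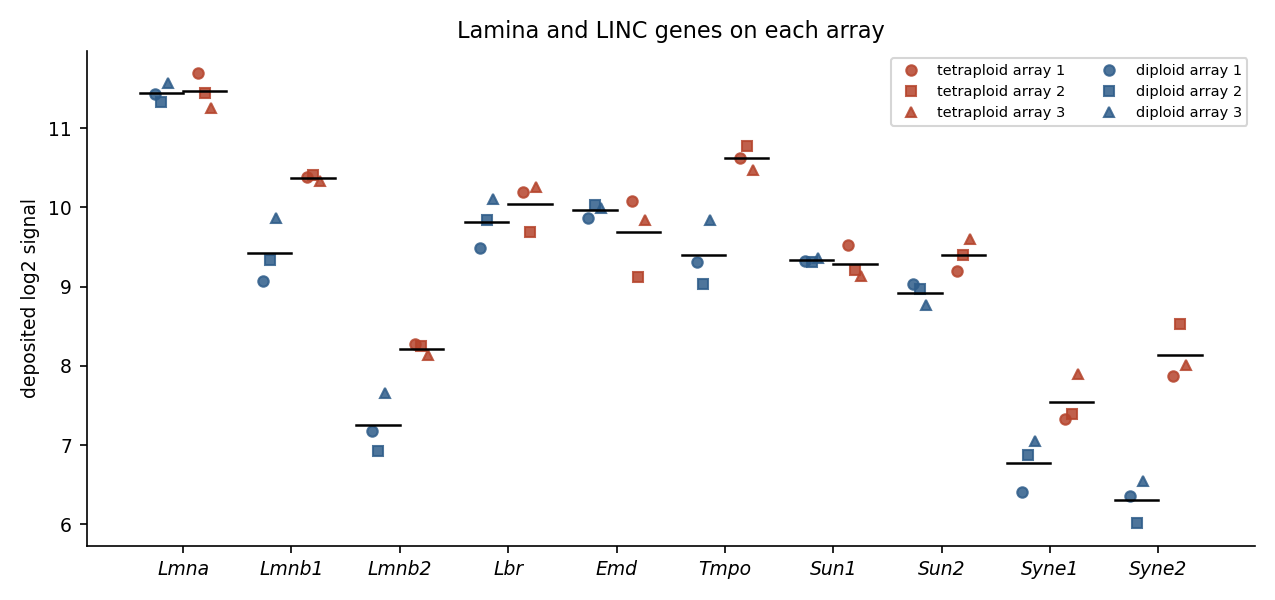
Deposited log2 signal of the 10 genes (y axis) on each array, diploid in blue and tetraploid in red, with a symbol for each array and a black line at the mean of 3. The red symbols lie above the blue ones in Lmnb1, Lmnb2, Tmpo, Sun2, Syne1 and Syne2 and overlap them in Lmna, Lbr, Emd and Sun1.

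**Figure D2:**
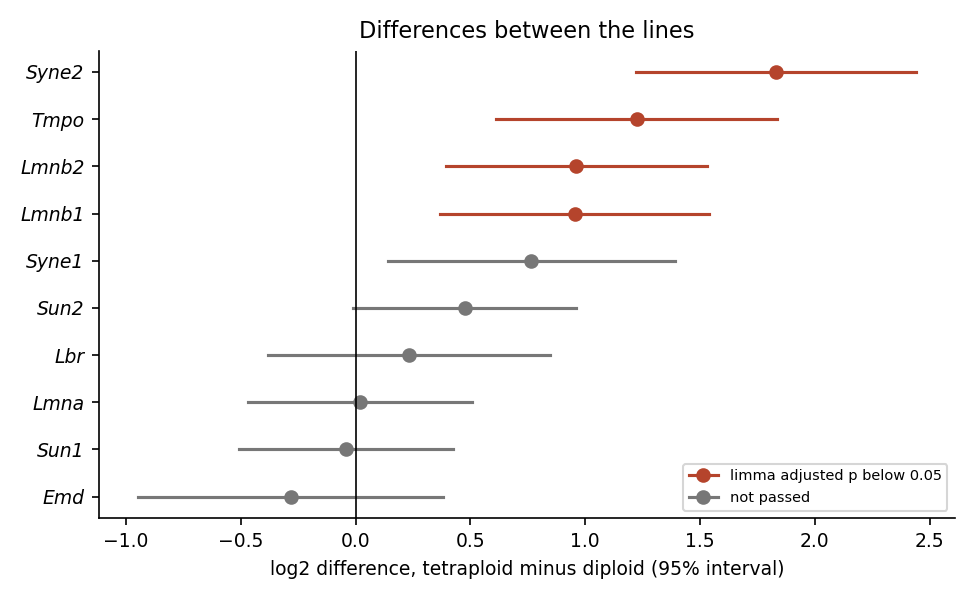
Log2 difference of each gene between the lines (x axis, tetraploid minus diploid) with its 95% interval from limma, red where the adjusted p was below 0.05. Syne2 (1.83, with all diploid values below background), Tmpo (1.22), Lmnb2 (0.96) and Lmnb1 (0.95) passed, and the intervals of Sun2, Lbr, Lmna, Sun1 and Emd include 0.

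The B-type lamins came first among the structural genes. Lmnb1, which encodes the lamin B1 found in most nuclei, had log2 levels of 10.38, 10.41 and 10.34 in tetraploid samples 1 to 3 and of 9.07, 9.33 and 9.86 in diploid samples 1 to 3. Levels of the other genes are given in the same order. The tetraploid values were close together, the diploid ones were spread, and the groups did not overlap. The means were 10.37 ± 0.03 against 9.42 ± 0.40 (SD, n = 3), a log2 difference of 0.95 ± 0.25 (SE) or 1.94-fold higher (adjusted p = 0.0473). Lmnb2, which encodes lamin B2, measured 8.27, 8.25 and 8.14 in tetraploid cells and 7.18, 6.93 and 7.66 in diploid cells. Here too every tetraploid value was above every diploid value. The means were 8.22 ± 0.07 against 7.26 ± 0.37, a log2 difference of 0.96 ± 0.24 (SE) or 1.95-fold (adjusted p = 0.0424). Lmnb2 lay above the background level on 1 of 3 diploid arrays, and was 1.79-fold higher with lower values raised to that level. The background level itself had a mean 0.12 higher in log2 on the tetraploid arrays. Both calls were lost when any 1 tetraploid array, diploid array 1 or diploid array 2 was left out, with log2 differences then of 0.78 or more (adjusted p 0.0857 to 0.156 for Lmnb1 and 0.0758 to 0.152 for Lmnb2).

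Lmna encodes lamins A and C, whose amount is known to go with tissue stiffness. Lmna measured 11.69, 11.44 and 11.26 in tetraploid cells and 11.43, 11.33 and 11.57 in diploid cells. The groups overlapped, with the highest and the lowest value both in the tetraploid line. The log2 difference was 0.02, with a 95% interval from -0.47 to 0.51 (adjusted p = 0.966), which leaves room for a rise or a fall within these bounds. Its sign turned without tetraploid array 1 (-0.10) or diploid array 2 (-0.04).

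Whether the lamins moved apart was tested within arrays, which compares changes and not the amounts of the genes. Lmna minus Lmnb1 was 1.31, 1.03 and 0.92 in tetraploid cells and 2.36, 1.99 and 1.71 in diploid cells. The diploid values were all above the tetraploid ones, and the difference between the lines was -0.93. The exact two-sided permutation test gave p = 0.1, the smallest that 3 against 3 samples allow, and 0.25 adjusted over the 5 pairs tested. Lmnb1 minus Lmnb2 was 2.16 ± 0.04 in the tetraploid and 2.16 ± 0.26 in the diploid line (difference -0.01, exact permutation p = 1, 1 after adjustment over the 5 pairs). The mean differences of the B-type lamin genes between the lines were nearly the same, although a test of 3 against 3 samples cannot show them to be equal. The sign of the small difference of -0.01 turned in 4 alternatives, the largest value being 0.12 with values raised to background.

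**Figure D3:**
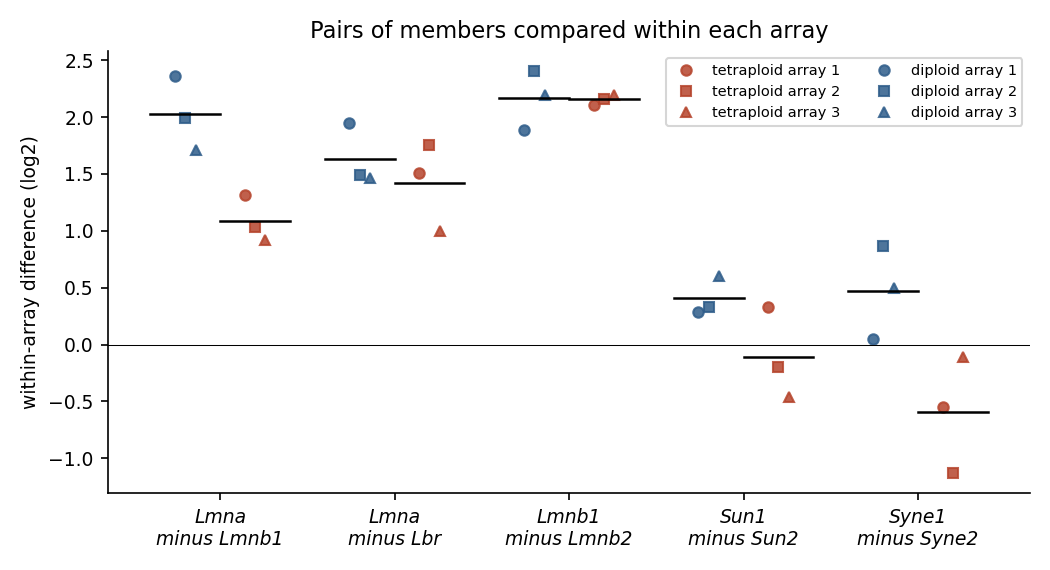
Within-array log2 difference (y axis) between the members of 5 pairs on each array, diploid in blue and tetraploid in red, with the mean of 3 as a black line. Lmna minus Lmnb1 and Syne1 minus Syne2 (with diploid values mostly below background) are lower on all tetraploid arrays, Lmnb1 minus Lmnb2 has nearly the same mean in both lines, and the other 2 pairs overlap.

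Among the inner membrane partners of the lamins Tmpo rose, and Lbr and Emd did not pass the test. Tmpo encodes the LAP2 proteins, of which some span the inner membrane and bind B-type lamins and one, LAP2 alpha, works with A-type lamins in the nuclear interior. Its single probe set, whose annotation lists several Tmpo transcripts, does not tell these products apart. Tmpo measured 10.62, 10.77 and 10.47 in tetraploid cells and 9.31, 9.04 and 9.84 in diploid cells. The groups were apart, and diploid array 3 was again the highest of its line. The means were 10.62 ± 0.15 against 9.40 ± 0.41 (SD, n = 3), a log2 difference of 1.22 ± 0.26 (SE) or 2.34-fold higher (adjusted p = 0.0255). The call ended without tetraploid array 1 or 2 or diploid array 1 or 2 (adjusted p 0.0539 to 0.0975).

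Lbr encodes the lamin B receptor, a membrane protein that binds B-type lamins and the heterochromatin protein HP1 and that also carries sterol reductase activity. Lbr measured 10.19, 9.68 and 10.26 in tetraploid cells and 9.48, 9.84 and 10.11 in diploid cells. These values overlapped, and the log2 difference was 0.23 (95% interval -0.38 to 0.85, adjusted p = 0.613). The 30 measured genes around Lbr on chromosome 1, 15 on each side from Acbd3 to Mia3, had a median log2 difference of -0.53, with 12 that fell and 0 that rose. Lbr was the member with the lowest neighbour median, and its own difference was on the other side of 0 from that median. Neighbour medians of the other 9 members lay between -0.27 (Lmnb1) and 0.44 (Lmna). That of Sun2 was 0.38 beside its own difference of 0.47, whereas Lmna itself differed by 0.02. Neighbours were read for the 10 members only, so the surroundings of other genes named below were not examined. Emd encodes emerin, which is lost in X-linked Emery-Dreifuss muscular dystrophy. Emd measured 10.09, 9.13 and 9.84 in tetraploid cells and 9.87, 10.03 and 10.00 in diploid cells. Tetraploid array 2 lay below the rest, and the log2 difference of -0.28 did not pass (95% interval -0.95 to 0.38, adjusted p = 0.564). Without that array it was -0.0041.

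The SUN domain genes, whose proteins span the inner membrane and hold nesprins in place, did not pass the test. Sun1 measured 9.53, 9.21 and 9.13 in tetraploid cells and 9.32, 9.31 and 9.36 in diploid cells, with a log2 difference of -0.04 (95% interval -0.51 to 0.42, adjusted p = 0.919). The tetraploid values lay on both sides of the narrow diploid range, and the sign turned without tetraploid array 3 (0.04). Sun2 measured 9.20, 9.41 and 9.60 in tetraploid cells and 9.04, 8.98 and 8.76 in diploid cells. Its groups did not overlap, but the log2 difference of 0.47 (95% interval -0.01 to 0.96) had an adjusted p of 0.178. Sun1 minus Sun2 within arrays differed by -0.52 between the lines (exact two-sided permutation p = 0.2, 0.333 adjusted over the 5 pairs, in a test that cannot give less than 0.1 here).

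Of the nesprin genes, whose giant proteins reach from the outer nuclear membrane to the cytoskeleton, Syne2 rose. It encodes nesprin-2, of which the giant form binds actin and microtubule motor complexes. Syne2 measured 7.88, 8.53 and 8.01 in tetraploid cells and 6.36, 6.02 and 6.55 in diploid cells. The log2 difference of the deposited values was 1.83 ± 0.26 (SE, adjusted p = 0.00741). The diploid values were all below the background level, so the fold is given as at least 1.96-fold higher, computed with values raised to that level (adjusted p = 0.00403). With values so raised its log2 difference was 0.97, below the 1.22 of Tmpo. Syne2 was still called in every fit without 1 array (adjusted p 0.0147 to 0.0376).

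Syne2 had 4 single-gene probe sets, and all rose. None of the 4 was above background on any diploid array, so their folds are bounds, at least 1.96, 2.11, 2.03 and 1.84 in the order of their mean level, with values raised to background. The log2 differences of the deposited values were 1.83, 2.35, 2.35 and 2.09, with adjusted p between 0.00462 and 0.0150 in the limma fit over all probe sets. Tetraploid values lay between 7.78 and 8.56 over the 4 probe sets and diploid values between 5.36 and 6.75, with no overlap. The probe sets read the same RNA on the same arrays, so they are not separate samples.

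Syne1 encodes nesprin-1, best known from muscle and cerebellum. Syne1 measured 7.33, 7.40 and 7.90 in tetraploid cells and 6.41, 6.88 and 7.05 in diploid cells. The groups did not overlap, but the log2 difference of 0.77 ± 0.26 (SE, 95% interval 0.14 to 1.39) did not pass after limma's adjustment over all genes (adjusted p = 0.105). Its values were near background, above it on 2 tetraploid arrays and 1 diploid array. The second Syne1 probe set gave 0.63 (adjusted p = 0.184). With values raised to background the difference was 0.37 (adjusted p = 0.192). Syne1 was called when the test was limited to genes above background on at least 3 arrays (adjusted p = 0.0453), which it passed mainly through the tetraploid arrays. Syne1 minus Syne2 within arrays differed by -1.06 between the lines (exact two-sided permutation p = 0.1, the smallest possible, and 0.25 adjusted over the 5 pairs). This difference rests on diploid values mostly below background and was -0.60 with values raised to it.

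**Figure D4:**
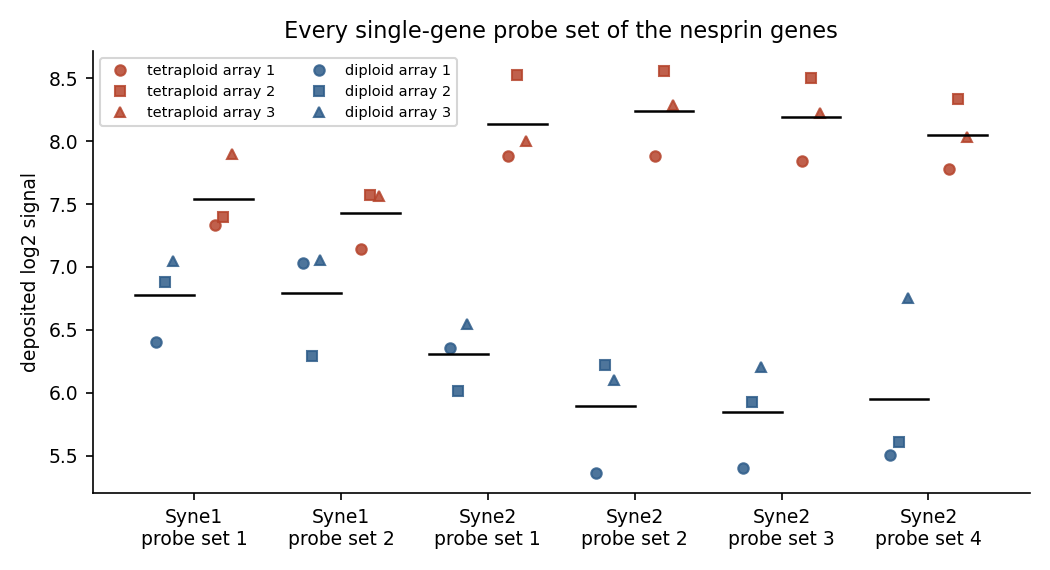
Deposited log2 signal (y axis) of each single-gene probe set of Syne1 and Syne2 on every array, numbered by falling mean level, diploid in blue and tetraploid in red, with the mean of 3 as a black line. Red and blue are apart in all 4 probe sets of Syne2 and are closer together in the 2 of Syne1. All diploid values of Syne2 are below background.

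The other genes of the nuclear envelope were read from lists of fixed membership. Of 10 other LINC genes and cytoplasmic partners 1 rose, 1 fell and 8 did not pass (median log2 difference 0.22). With values raised to background the median was 0.12, which is only the shift of the background level itself between the lines. The gene that rose was Syne3, a nesprin that binds plectin, at 8.79 ± 0.14 against 7.04 ± 0.57 (SD, n = 3; 3.38-fold, adjusted p = 0.0148, and 0.0637 without diploid array 2). Syne3 was above background on 1 of 3 diploid arrays and 2.66-fold higher with values raised to background. The plectin gene Plec stood at 11.70 to 11.86 against 11.51 to 11.76 and did not pass (adjusted p = 0.635). Kif5b, the kinesin heavy chain that nesprins can recruit to the nucleus, fell to 9.89 ± 0.17 from 11.02 ± 0.08 (2.18-fold lower, adjusted p = 0.0135), a call lost when diploid array 1 or 2 was left out (adjusted p 0.0612 and 0.0617). The germ cell SUN genes Sun3 and Sun5 lay at or below background on all 6 arrays.

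Other proteins of the envelope went both ways. Of 13 such genes 3 rose, 2 fell and 8 did not pass (median -0.17). Nemp1, an inner membrane protein, rose to 8.35 ± 0.22 from 6.92 ± 0.09 (SD, n = 3; 2.68-fold, adjusted p = 0.00758) and kept its call in every fit without 1 array. It was above background on 1 of 3 diploid arrays and 2.26-fold higher with values raised to background. Nrm, which encodes the membrane protein nurim and was above background on 2 of 3 diploid arrays, was 2.43-fold higher (2.37-fold with raised values), and Banf1, the small DNA-binding protein that bridges chromatin and LEM domain proteins such as emerin, was 1.64-fold higher. Tor1aip2, a partner of torsin ATPases, was 2.46-fold lower, and Tmem43, an emerin-binding membrane protein also called LUMA, was 1.73-fold lower. The LEM domain genes Lemd2 (-0.27, adjusted p = 0.381) and Lemd3 (-0.35, adjusted p = 0.384) did not pass. The calls of Nrm and Tor1aip2 ended without diploid array 1 or 2, that of Tor1aip2 also without diploid array 3, and those of Banf1 and Tmem43 without any 1 of 5 arrays, all but tetraploid array 1 (adjusted p 0.0541 to 0.171 over these fits). Banf1 also lost its call with array medians aligned (adjusted p = 0.0521) or the probe sets of a gene averaged (0.0506).

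Of 5 enzymes that process lamin tails 0 passed the limma test in either direction (1 higher and 1 lower at an unadjusted p under 0.05). Closest were the carboxyl methyltransferase gene Icmt, at 8.35 ± 0.24 against 9.10 ± 0.01 (SD, n = 3; adjusted p = 0.0514, unadjusted p = 0.00728), and the farnesyltransferase subunit gene Fnta, at 10.39 ± 0.43 against 9.70 ± 0.05 (adjusted p = 0.125, unadjusted p = 0.0310). Neither group pair overlapped. Icmt was called as lower in 7 of the alternative fits, among them quantile normalization and median centring of the arrays. Around Lbr's sterol step, 1 of 8 measured sterol genes fell, Hsd17b7 (2.54-fold lower, adjusted p = 0.0392, and 0.0922 to 0.134 without any 1 array but tetraploid array 3), and 7 did not pass.

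On the chromatin side, heterochromatin genes mostly rose in the fit of all 6 arrays. Of 8 measured heterochromatin genes 6 rose, 0 fell (0 also at an unadjusted p under 0.05) and 2 did not pass, with a median log2 difference of 0.89. Cbx5, the HP1 alpha gene whose product binds LBR, stood at 11.34 ± 0.04 against 10.16 ± 0.10 (SD, n = 3; 2.26-fold, adjusted p = 0.0098), Cbx3, which encodes HP1 gamma, was 2.13-fold higher, and the histone methyltransferase gene Suv39h2, above background on 2 of 3 diploid arrays, was 3.04-fold higher (2.95-fold with raised values). The methyltransferase gene Ehmt1, at 8.75 ± 0.15 against 8.74 ± 0.23, did not pass. The count of 6 fell to 0 without diploid array 2, 1 without diploid array 1 or tetraploid array 2 and 2 without diploid array 3. The call of Cbx5 ended only without diploid array 2 (adjusted p = 0.0555).

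Nuclear pore genes, whose complexes sit in the envelope between lamina patches, held 7 rises, 1 fall and 22 genes that did not pass among 30 measured (median 0.49). Nup37 (2.59-fold) and Nup43 (2.51-fold), of the scaffold Y complex, and Nup155 (2.24-fold), of the inner ring, rose most, and the membrane protein gene Tmem33 fell (1.70-fold lower). Nup153, a basket protein that touches the lamina, did not pass (0.50, adjusted p = 0.178). The number of rises was 15 with values raised to background, 13 with only genes above the median level, and 0 without diploid array 1 or 2. The call of Tmem33 ended without any 1 array but tetraploid array 1 (adjusted p 0.0900 to 0.150). Of 15 measured genes of envelope breakdown and reassembly 3 rose and 12 did not pass (median 0.05). These were the mitotic kinase gene Cdk1 (2.30-fold), which phosphorylates lamins, the cyclin gene Ccnb2 (2.70-fold) and Vrk1 (2.15-fold), the kinase that acts on the Banf1 product. Their count was 0 without diploid array 1 or 2, and Vrk1 was called only without tetraploid array 3 among the fits without 1 array.

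Proliferation markers, all but Rrm2, differed between the lines in the same direction as the lamina genes that rose. Of 14 such markers, such as Mcm5 (10.95 ± 0.30 against 9.16 ± 0.24, SD, n = 3) and Mcm7, 11 rose and 3 did not pass (2 to 11 rose without 1 array). Among these 3 was Rrm2, the only marker with a lower mean in the tetraploid line (log2 difference -0.56, limma adjusted p = 0.322). Their mean level ranged from 10.47 to 11.06 in tetraploid samples and was 9.49, 9.35 and 9.94 in diploid samples 1 to 3. Diploid array 3 was the highest diploid array in all 14 markers, in 8 of the 10 lamina and LINC genes, and in 39.2% of all genes. Lmnb1, Lmnb2 and Tmpo were among those 8. The part of proliferation in the differences of the lamina genes was not tested.

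**Figure D5:**
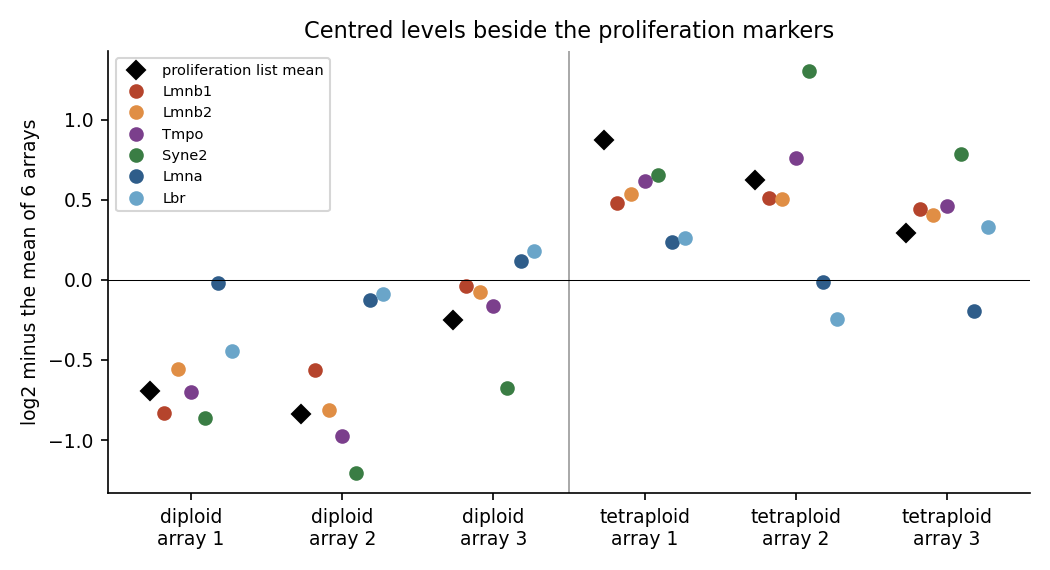
Log2 level minus the mean of the 6 arrays (y axis) on each array for 6 of the genes and for the mean of the 14 proliferation markers (black diamonds). Lmnb1, Lmnb2 and Tmpo lie below 0 on all diploid arrays, nearest to 0 on diploid array 3, and above 0 on all tetraploid arrays, as does the marker mean, while Lmna and Lbr have values on both sides of 0 in the tetraploid line.

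The genes with profiles most like those of the members with the lowest adjusted p were found over the 6 arrays by the root mean square distance of centred log2 levels, among 10604 genes above background on all arrays of at least 1 line. Nearest to Tmpo were Slf1 (0.0786), Ckap2l (0.0838), Cdc20 (0.0839), Diaph3 (0.0850) and Incenp (0.0923). Cdc20 is the activator of the anaphase-promoting complex, and Incenp a subunit of the chromosomal passenger complex. Nearest to Syne2 were the phosphatase gene Cdc25b (0.126), the replication gene Mcm5 (0.130), Osr1 (0.164), Fut10 (0.165) and Mcc (0.185). The distances to Syne2 use its diploid values below background. With 6 arrays in 2 groups, such distances mostly reflect the difference between the lines.

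The cells were checked against markers. The fibroblast genes Col1a1, Col1a2, Vim and Fn1 lay above 12.3 on every array. Others were lower on some arrays, such as Thy1 (9.97 on tetraploid array 2) and Pdgfra (9.22 on diploid array 1). Of 10 fibroblast markers 3 fell (Col1a1, Fn1 and Sparc) and 7 did not pass. At an unadjusted limma p under 0.05, 6 were lower and 1, Pdgfra, was higher in the tetraploid line. Of 10 macrophage markers 1 fell, Lyz2, and 9 did not pass; 8 were not above background in any tetraploid sample and 5 in any diploid sample. Their mean level was 4.46, 4.58 and 4.35 in tetraploid cells and 5.12, 6.40 and 7.24 in diploid cells, and Adgre1 was at 0 on tetraploid array 1. These means rest mostly on values below background. The median log2 difference of the list was -1.73. It was 0.12 with values raised to background, which is only the shift of the background level itself. Of 10 skeletal muscle markers 3 fell, Acta1 (at least 20.0-fold lower), Des (at least 3.17-fold lower) and Ttn, which was below background on all arrays, while Myod1 and Myog did not pass. Krt18 fell among 8 epithelial markers, Emcn and Kdr among 8 endothelial markers and 0 of 8 neural markers (2 lower at an unadjusted p under 0.05 in limma). With values raised to background the calls of Lyz2, Ttn, Krt18 and Emcn ended. Among these markers Acta1, Des, Emcn and Kdr kept their calls in every fit without 1 array, while Krt18 lost its call without tetraploid array 2 and Col1a1, Fn1, Sparc, Lyz2 and Ttn lost theirs in 4 or 5 of the 6 fits, diploid arrays 2 and 3 and tetraploid array 2 being among the arrays left out for each. Quantile normalization ended the calls of Col1a1, Fn1 and Ttn. In bulk samples fewer cells of a type and less RNA per cell cannot be told apart, and the part of these markers in the lamina results was not tested. Array medians differed by at most 0.0435, so every difference is relative to other genes and gives no amount per cell or per genome.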

How the data were processed

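Total RNA of 6 samples was depleted of ribosomal RNA, turned into biotin-labelled sense-strand DNA and measured on Affymetrix mouse whole-transcript arrays, per the labels' protocols. The authors deposited log2 values, 1 for each of 28944 probe sets and array. The tool was Affymetrix Expression Console, per the submitters' processing notes; for background correction and normalization the method is not given in the sources used here. This scale was checked: on the linear scale 100% of values below 1000 were whole hundredths (tolerance 0.001).

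Of the probe sets 21789 carried 1 symbol, 1621 several and 5534 none; 21698 of the first matched RefSeq (GRCm38.p6) by Entrez ID. The probe set with the highest mean was kept for 993 genes with several, which left 19856 genes. Values were used as deposited. limma 3.58.1 in R 4.3.3 (lmFit, eBayes, two-sided, Benjamini-Hochberg over all genes) gave every adjusted p but those of the within-array pairs. On simulated data it called 5 of 100 genes changed by 1 in log2 and 73 of 100 changed by 2, with 4 false calls. These changed genes stood among 19856 in that data, whereas 2770 genes were called in the main fit here. Whether the same shares hold for the main fit was not tested. Genes that did not pass may still differ. Within-array pairs used exact permutation tests with Benjamini-Hochberg over the 5 pairs (scipy 1.17.1). Arrays give no counts, so their number limits the precision.

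Replicate numbers recur in both lines; deviations of same-numbered arrays correlated across genes at 0.101, 0.0307 and -0.0461, and no block was used. The members and the 15 gene lists (167 of 172 entries measured) were chosen with earlier results of these data known. In each list the rule named up to 3 called genes with the largest rise and 3 with the largest fall or, where none was called, the 2 with the lowest adjusted p; others are named for their role. Alternatives covered normalization, filters, a background level, probe set choice, the variance model, a replicate block and leaving out each array.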

Additional observations from a re-analysis of the deposited data

How the results depend on the processing

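The direction of Lmnb1, Lmnb2, Tmpo, Syne2, Lbr, Emd, Sun2 and Syne1 held in every alternative in which they were tested. Those of Lmna and Sun1, which did not pass, turned in 2 fits (-0.0952 without tetraploid array 1 and -0.0391 without diploid array 2) and in 1 fit (0.0364 without tetraploid array 3); without 1 array they ranged from -0.0952 to 0.1211 and from -0.1603 to 0.0364. The Lmnb1 minus Lmnb2 difference turned with values raised to background (0.1168), without tetraploid array 1 (0.0154) and without diploid array 2 (0.1133) or 3 (0.0087), and was -0.1461 to 0.1133 over the fits without 1 array. Under 2 normalizations, raised values, another variance model and 2 probe set choices all 4 calls remained; Lmnb1 and Tmpo, above background on all arrays, also kept theirs under 2 filters on low values. Fits without 1 array called 1 to 4 rising members, 0 falling members and 837 to 2532 genes of all; the Lmna minus Lmnb1 difference was -1.09 to -0.76 in them. With a replicate block, although the samples share only a number, 1 member (Syne2) rose and 1644 genes were called, against 2770 without it. Syne2 was not tested with only genes above the median level. Other counts over all genes were 2749 to 4015. Ttn, called lower, and Gfap, not called, lay below background and turned to 0.1238 with values raised to it, which there is only the shift of the background itself. Values near background limit Syne1, Syne2, Lmnb2, Syne3 and Nemp1. The cause of these shifts was not tested.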
